A study of Mus musculus with 16 samples.

Results

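The 132 protein-coding olfactory receptor genes of mouse chromosome 9 were examined in whole-genome bisulphite sequencing (WGBS) libraries of splenic B and T cells. Members were all genes of chromosome 9 that GENCODE vM21 (mm10) annotates as protein-coding and whose symbol starts with Olfr, and they made up 132 of 21755 protein-coding genes on chromosomes 1 to 19 and X. Of these, 3 carry symbols that end in ps1 (Olfr839-ps1, Olfr896-ps1 and Olfr911-ps1) but are annotated as coding. A further 41 Olfr genes of chromosome 9 are annotated as pseudogenes, 11 of them polymorphic ones, and were not members. Each member was measured over the gene with 2 kb on either side, and each cluster was also measured in fixed 10 kb tiles.

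Olfactory receptors are odorant-binding receptors of the G protein-coupled family, and in rodents they form one of the largest gene families of the genome. Each mature olfactory neuron expresses 1 allele of 1 such gene, while the remaining receptor genes are kept in compact chromatin, and other tissues use the family little. The genes have short coding sequences that usually lie in a single exon, sit in tandem arrays, and mostly lack the CpG islands that mark the starts of broadly used genes.

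The 16 libraries came from resting (CD43-) B cells and naive CD4+ T cells, isolated with magnetic kits from spleens of C57BL/6J mice aged 6 to 8 weeks. Cell type, sex and assay were crossed in 8 groups of 2 libraries, which gave 8 libraries per cell type. The assays were standard bisulphite sequencing (BS), which reads both 5-methylcytosine and 5-hydroxymethylcytosine as methylated, and oxidative bisulphite sequencing (oxBS), which reads 5-methylcytosine alone. No group carried a genetic change or a treatment. Mice were pooled, part of each DNA sample was oxidized, and the labels do not tie a BS library to an oxBS library, so p-values measure the spread between libraries. The methylation level was the percentage of methylated calls among all calls.

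The libraries held between 123323834 and 170619848 CpG calls, and between 6.15 and 8.48 calls per CpG of chromosome 9. Replicates were not identical, since their chromosome 9 tiles differed by between 1.64 and 1.995 times the chi-square that counting error gives. At windows from 1000 bases before to 500 after the annotated start, the B cell markers Cd79a, Cd79b and Pax5 were called lower in B cells, and 4 of 5 T cell markers (Cd3e, Cd3g, Cd4 and Bcl11b) lower in T cells. The window of Cd22 was at 36.3% in B and 54.1% in T cells (adjusted p = 0.051), and that of Cd28 at 91.1% in both. Of 5 markers of other cells, Cd8a was called lower in T cells, and Lyz2, Csf1r, Hbb-bs and Alb were not called.

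The members lay in 2 clusters. Cluster 1 held 37 members from Olfr24 to Olfr18 over 1.59 Mb (chr9:18751507-20336094), and cluster 2 held 95 members from Olfr160 to Olfr986 over 2.49 Mb (chr9:37708964-40190134). Member genes were between 930 and 26047 bases long, with a median of 5480.5. Their regions were poor in CpGs, with a median of 3.68 CpGs per kb against 12.3 for the other chromosome 9 genes. All 132 members passed the filter of 20 calls and 4 covered CpGs in at least 5 libraries of each cell type. A member region held a median of 35.5 CpGs (from 9 to 196) and of 214 calls per library, against 298 CpGs and 2361 calls for all 21519 gene regions tested. In 10 cases the regions of neighbouring members overlapped, so members were not independent of each other.

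The starts of 4 genes are shown because they carry the lowest and the highest start windows of the members by the mean of all 16 libraries and the pair of receptors most used in studies of receptor choice, M72 (Olfr160) and M71 (Olfr151). The sequences run from 250 bases before the annotated start through the first 50 bases of the gene, 5′ to 3′ on the gene's strand, with CpGs in capitals. They were read from GRCm38.p6, whose chromosome coordinates are those of mm10. They lie at chr9:19804656-19804955 (Olfr859, plus strand), chr9:38348161-38348460 (Olfr898, plus strand), chr9:37716201-37716500 (Olfr160, minus strand) and chr9:37731055-37731354 (Olfr151, minus strand).
Olfr859: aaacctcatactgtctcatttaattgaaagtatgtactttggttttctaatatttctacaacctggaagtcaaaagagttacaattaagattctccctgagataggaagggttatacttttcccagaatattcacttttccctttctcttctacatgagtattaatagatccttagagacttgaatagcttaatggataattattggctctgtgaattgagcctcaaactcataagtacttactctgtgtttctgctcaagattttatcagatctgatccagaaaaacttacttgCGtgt
Olfr898: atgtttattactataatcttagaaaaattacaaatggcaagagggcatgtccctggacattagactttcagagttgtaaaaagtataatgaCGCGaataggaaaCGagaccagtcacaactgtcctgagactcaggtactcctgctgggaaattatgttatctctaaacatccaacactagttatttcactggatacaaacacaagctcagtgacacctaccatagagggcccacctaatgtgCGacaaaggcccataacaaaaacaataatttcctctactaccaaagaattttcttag
Olfr160: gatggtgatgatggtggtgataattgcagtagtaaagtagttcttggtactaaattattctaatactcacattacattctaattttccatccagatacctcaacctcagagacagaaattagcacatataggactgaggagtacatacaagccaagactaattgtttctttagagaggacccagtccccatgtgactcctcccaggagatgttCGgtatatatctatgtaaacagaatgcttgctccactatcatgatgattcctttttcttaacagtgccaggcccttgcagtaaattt
Olfr151: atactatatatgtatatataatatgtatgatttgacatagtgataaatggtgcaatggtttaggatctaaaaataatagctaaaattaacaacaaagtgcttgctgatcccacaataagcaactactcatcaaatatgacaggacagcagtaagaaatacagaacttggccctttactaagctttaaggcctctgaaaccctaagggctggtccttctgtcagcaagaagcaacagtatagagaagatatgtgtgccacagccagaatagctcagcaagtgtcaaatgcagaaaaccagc

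These stretches held 1, 4, 1 and 0 CpGs in turn. Among all 132 members the median was 1 CpG in 300 bases and the highest number 7, and 63.6% of members had any CpG there. Olfr genes on other chromosomes were alike, with a median of 1 CpG and 64.8% with any. For all protein-coding genes the median was 11 CpGs and 94.8% had at least 1. The homeodomain motif TAATTA, which reads the same on both strands, occurred in 26 of 132 member stretches (19.7%), in 24.7% of the stretches of Olfr genes on other chromosomes and in 5.22% of all. The EBF motif CCCNNGGG, also the same on both strands, occurred in 13.6% of member stretches and in 15.9% of all, so it was no more frequent in the members. The shown stretch of Olfr859 held 1 TAATTA, and the other 3 held neither motif. A motif match is a description of the letters and not a site.

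The members were methylated in both cell types. Pooled over the 5335 CpGs of all member regions, the level was 85.6% ± 0.09 over the 8 B cell libraries and 85.6% ± 0.17 over the 8 T cell libraries (mean and SD). The 16 libraries ran from 85.3% to 85.9%, a range of 0.588 percentage points, and the cell types overlapped. Chromosome 9 as a whole was lower, at 80.1% ± 0.6 in B and 78.7% ± 0.5 in T cells, and ranged over 3.08 points. The member regions were covered at between 5.16 and 7.08 calls per CpG, slightly below the chromosome.

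**Figure D1:**
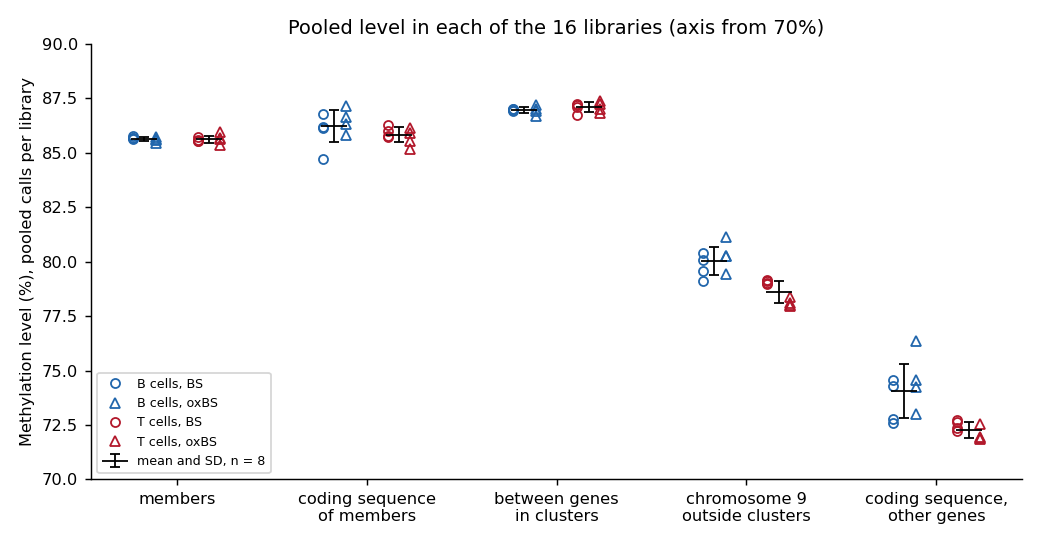
Pooled methylation level (%) of each library (y axis, starting at 70%) over 5 sets of CpGs of chromosome 9 (x axis), with B cells in blue, T cells in red, circles for BS, triangles for oxBS, and bars for the mean and SD of 8 libraries. Member regions lie between 85.3% and 85.9% in all 16 libraries, while chromosome 9 outside the clusters lies between 78.0% and 81.1% and separates T cell oxBS libraries (78.0% to 78.4%) from the rest.

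The difference between B and T cells was 0.03 points over the member CpGs and 1.44 points over chromosome 9 outside the clusters. Taken by cluster, B minus T was -0.42 points over the members of cluster 1 and 0.20 points over those of cluster 2. The libraries of the cell types overlapped in both clusters. No p is given for these pooled differences. Within BS libraries, members averaged 85.7% in B and 85.6% in T cells, and within oxBS libraries 85.6% in both. Chromosome 9 outside the clusters averaged 79.8% and 79.1% in BS libraries and 80.3% and 78.1% in oxBS libraries. The wider gap of the chromosome in oxBS libraries was thus not seen in the pooled members.

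The parts of the member regions were all highly methylated. The 2 kb before the start was at 85.3% ± 0.6 in B and 84.8% ± 0.7 in T cells, the gene at 85.7% ± 0.2 and 85.8% ± 0.2, and the 2 kb after the end at 85.7% ± 0.4 and 85.9% ± 0.5. The 710 CpGs in member coding sequence were at 86.2% ± 0.7 and 85.8% ± 0.3, against 74.1% ± 1.2 and 72.3% ± 0.4 for coding sequence of the other chromosome 9 genes. The 30.5% of member CpGs in soft-masked repeats were at 86.9% and 87.1%, and the rest at 85.1% and 85.0%. On chromosome 9 outside the clusters, repeats were higher than those of members, at 88.1% and 87.6%. The rest was lower there, at 78.1% and 76.5%. Olfr pseudogenes of chromosome 9, outside member regions, were at 85.7% ± 0.6 and 85.9% ± 0.6, and the clusters between genes at 87.0% ± 0.1 and 87.1% ± 0.2.

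Single members ranged from 71.3% to 91.5% in B cells (median 85.6%) and from 71.9% to 91.4% in T cells (median 85.1%). In both cell types, 108 of 132 members were at 80% or more and 14 were under 80%, while 10 were on different sides of this limit. Of the members, 109 lay above the chromosome 9 level in both cell types and 9 below it in both. The median over other chromosome 9 genes was 74.1% in B and 71.8% in T cells. Members of cluster 1 were lower at the median (81.5% in B and 82.2% in T cells) than those of cluster 2 (86.5% and 86.3%). Single members overlapped, from 71.3% to 89.98% in cluster 1 and from 77.4% to 91.5% in cluster 2 in B cells. Pooled over member CpGs, cluster 1 was between 82.4% and 84.0% over all libraries and cluster 2 between 86.2% and 86.9%. These pooled ranges did not overlap.

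The lowest member was Olfr846 (chr9:19357065-19364005, 31 CpGs). It ran from 66.3% through a median of 71.7% to 75.2% in B cells, and from 64.5% through 72.3% to 76.1% in T cells. The groups overlapped over nearly all of this range. By the mean of all 16 libraries, and not in each cell type, the next lowest were Olfr58 at 72.5% ± 3.0 in B and 73.7% ± 2.1 in T cells, Olfr845 at 75.6% ± 5.1 and 73.9% ± 1.5, Olfr881 at 77.4% ± 3.3 and 76.9% ± 1.9, and Olfr871 at 77.2% ± 4.5 and 78.1% ± 3.2. Of these 5, only Olfr881 lies in cluster 2. Neighbours in this order differed by less than the larger of their SDs in both cell types, except Olfr845 and Olfr881 in T cells.

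The highest member was Olfr898 (chr9:38348411-38352919, 50 CpGs), also the member with the highest start window. It ran from 89.7% through 91.4% to 93.4% in B cells and from 89.4% through 91.5% to 93.5% in T cells. By the mean of all 16 libraries, Olfr975, Olfr986, Olfr976 and Olfr981 followed, with means between 90.05% and 91.0% in both cell types. All 5 lie in cluster 2.

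The outermost members were high as well. Olfr24 at the start of cluster 1 was at 82.8% ± 1.5 in B and 82.4% ± 2.3 in T cells, and Olfr18 at its end at 89.98% ± 1.1 and 89.4% ± 1.0. Olfr986 at the end of cluster 2 was at 91.0% ± 0.8 and 90.3% ± 1.0. Only 73.2% of Olfr18 CpGs had a call in an average library, and in Olfr907 only 51.04%, so their levels rest on the CpGs that reads could reach.

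Olfr160, which encodes M72 and opens cluster 2, ran from 85.1% through 87.7% to 89.2% in B cells and from 82.9% through 89.2% to 91.2% in T cells, and the groups overlapped. Its neighbour Olfr151, which encodes M71, is annotated as a polymorphic pseudogene and was thus no member. It was at 91.1% ± 1.5 in B and 91.5% ± 2.0 in T cells over 30 CpGs. The coding sequences of Olfr160 and its nearest copy, Olfr151, were 96.7% identical. In all, 22 members had an Olfr copy at 95% identity or more over at least 80% of the coding sequence. The closest were Olfr952 and Olfr955 at 98.1%, and CpGs in such copies can lack calls. These 22 members had a median of 6.09 calls per CpG against 6.18 for the others. Their median level was 83.3% in B and 82.8% in T cells, below the 85.6% and 85.1% of all members. Whether close copies affect the levels was not tested.

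Whether the receptor genes differ between B and T cells was asked gene by gene in a logistic model with quasi-binomial spread that also held terms for sex and assay, with p-values adjusted by the Benjamini-Hochberg method over all 21519 gene regions. None of the 132 members was called at an adjusted p under 0.05, neither as higher in B nor as higher in T cells. Over all gene regions, 20.7% were called higher in B and 3.85% higher in T cells. Among 4623 other gene regions with mean calls per library between the lowest and the highest of the members, a range and not a match, 13.3% were called in either direction, and among 1001 Olfr genes on other chromosomes 6.59%. At an unadjusted p under 0.05, 6 members passed (4.55%), against 37.6% of all gene regions and 13.2% of Olfr genes on other chromosomes. Scaled by the chromosome 9 level of each library, 2017 gene regions were higher in B and 2442 higher in T cells, with 0 and 2 members (Olfr872 and Olfr974). With limma on logit levels 1 member was called, Olfr878 as higher in B cells, where 4589 of all gene regions were higher in B and 830 higher in T cells. With an exact permutation test over libraries 1 was called, Olfr872 as higher in T cells, against 4488 and 818 of all.

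The libraries of the cell types overlapped in all 132 members. No overlap was shown by 6.47% of all gene regions, which held more calls, and by 16 of 1001 Olfr genes on other chromosomes. The median difference of members was 0.105 points, with 72 higher in B and 60 higher in T cells, against a median of 1.15 points and 75.1% higher in B cells over all genes. By cluster, the median of B minus T was -0.532 points in cluster 1 and 0.452 points in cluster 2. Olfr genes on other chromosomes were close to the members, with a median difference of 0.168 points, 54.9% higher in B cells, and median levels of 86.2% in B and 86.0% in T cells. In 109 members the difference was under 2 points in size. The 95% interval of the difference from the model was within 5 points on either side of 0 in 103 members, and within 10 points in 131. The remaining one, that of Olfr850, reached 10.9 points. The interval extended by a median of 2.67 points to either side of its centre, so differences of the size seen for chromosome 9 (1.41 points) were mostly not detectable in single members. The model set no floor on its dispersion, the spread relative to counting error, which ran from 0.37 to 2.64 over members (median 1.02). Where it was under 1, intervals were narrower and p-values smaller than the same model gives with a floor of 1.

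**Figure D2:**
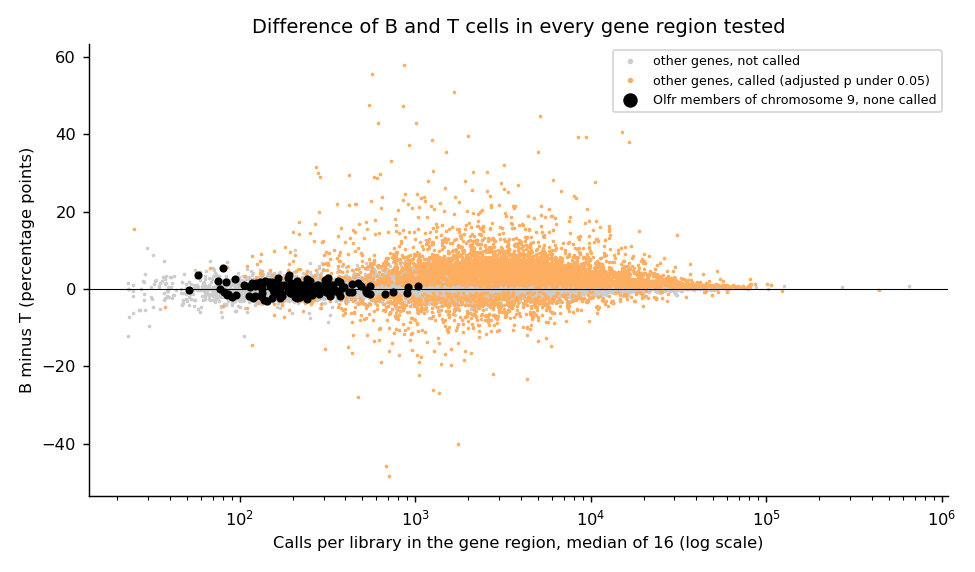
Difference of mean level between B and T cells in percentage points (y axis) against the median number of calls per library (x axis, log scale) for all 21519 gene regions, with members in black, other called genes in orange and other genes in grey. The members lie between -3.16 and 5.37 points, at calls per library where differences of over 10 points occur in other genes.

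The members closest to a call were chosen after their values were seen. Olfr878 ran from 84.8% through 87.5% to 90.1% in B cells and from 78.8% through 84.6% to 87.9% in T cells. It was 3.54 points higher in B cells (interval 0.81 to 6.30) with an adjusted p of 0.0583. Olfr872 was 1.35 points lower in B cells (interval -2.52 to -0.27, adjusted p = 0.0686). Olfr980 was 1.84 points higher (interval 0.36 to 3.47, adjusted p = 0.07). Intervals and p-values are from the quasi-binomial model, while the points are differences of mean library levels, so an interval need not be centred on them. The largest differences by size were those of Olfr850 (5.37 points higher in B, interval -1.93 to 10.91) and Olfr862 (-3.16 points, interval -7.57 to 1.83), and both intervals held 0. Leaving out any of 5 single libraries brought 1 or 2 members past the threshold, while 3614 to 5179 of all gene regions were called higher in B and 743 to 824 higher in T cells over the 16 such fits. Without female T cell BS replicate 15 these were Olfr970 and Olfr980, without male B cell oxBS replicate 3 Olfr878 and Olfr974, without male T cell BS replicate 5 Olfr878 and Olfr905, without male T cell BS replicate 7 Olfr160, and without male T cell oxBS replicate 6 Olfr980.

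Sex and assay gave no member calls in the same model. For males against females, 0 members were called and 1.67% of all gene regions. At an unadjusted p under 0.05 these were 5 of 132 members and 1474 of 21519 gene regions. The smallest adjusted p for sex among members was 0.0933, for Olfr974. For BS against oxBS, 0 members were called (7 unadjusted) and 0% of all gene regions (2277 unadjusted). Members pooled differed by 0.02 points between BS and oxBS, against 0.23 points for chromosome 9. The interaction of cell type and sex was called in 0 members (8 unadjusted) and in 0.00465% of all gene regions (769 unadjusted). That of cell type and assay was called in 0 members (7 unadjusted) and in 4.35% of all (4134 unadjusted). Unadjusted, the share of members was above that of all gene regions only for the interaction of cell type and sex.

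Start windows, from 1000 bases before to 500 after the annotated start, separated the members most from other genes. Some members, such as Olfr834, Olfr854 and Olfr885, are annotated as coding sequence alone, so their annotated start is the first coding base. This limit also holds for the stretches and bins about the start. Of 132 member windows, 47 held under 4 CpGs, and 73 passed the filter. The 73 windows had a median level of 86.3% in B and 85.8% in T cells, and none was under 50% in either. The 1067 other windows of chromosome 9 had medians of 11.2% and 9.84%, and 63.8% of them were at 20% or less in at least 1 cell type. Their median of 56 CpGs stood against 4 for all member windows.

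By the mean of all 16 libraries, the lowest member window was that of Olfr859, whose start is shown above, at 54.3% ± 5.1 in B and 59.2% ± 6.9 in T cells over 6 CpGs. Its libraries ran from 48.4% to 62.5% in B and from 50% to 71.9% in T cells. The shown 300 bases hold only 1 of these CpGs, which was at 70.8% ± 17.4 in B and 73.3% ± 9.0 in T cells, at 3 to 14 calls per library. The window of Olfr906 was at 58.5% ± 8.1 and 56.6% ± 8.9, lower than that of Olfr859 in T cells, and the 2 windows were less apart than their SDs. Olfr868, Olfr835 and Olfr58 followed, with means between 59.5% and 68.3%. The highest window was that of Olfr898 at 98.3% ± 2.0 and 96.6% ± 2.9 over 6 CpGs, followed by Olfr250, Olfr910, Olfr986 and Olfr984 between 93.8% and 97.3%. The window of Olfr160 was at 94.7% ± 3.9 and 92.6% ± 6.3 over 5 CpGs, and that of Olfr151 at 85.9% ± 3.9 and 85.6% ± 5.0 over 8 CpGs.

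In the quasi-binomial model, no member window was called as higher in B cells or in T cells. Of all 20425 windows tested, 6.72% were called higher in B and 3.1% higher in T cells. No member window had an unadjusted p under 0.05 in this model, a count not made over all windows. The exact permutation test also called no member window, but its count over all windows is not given here, so this 0 has no share beside it. The smallest adjusted p of a member window in the model was 0.204. Member windows held a median of 37.5 calls per library, which limits these comparisons more than those of the gene regions.

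**Figure D3:**
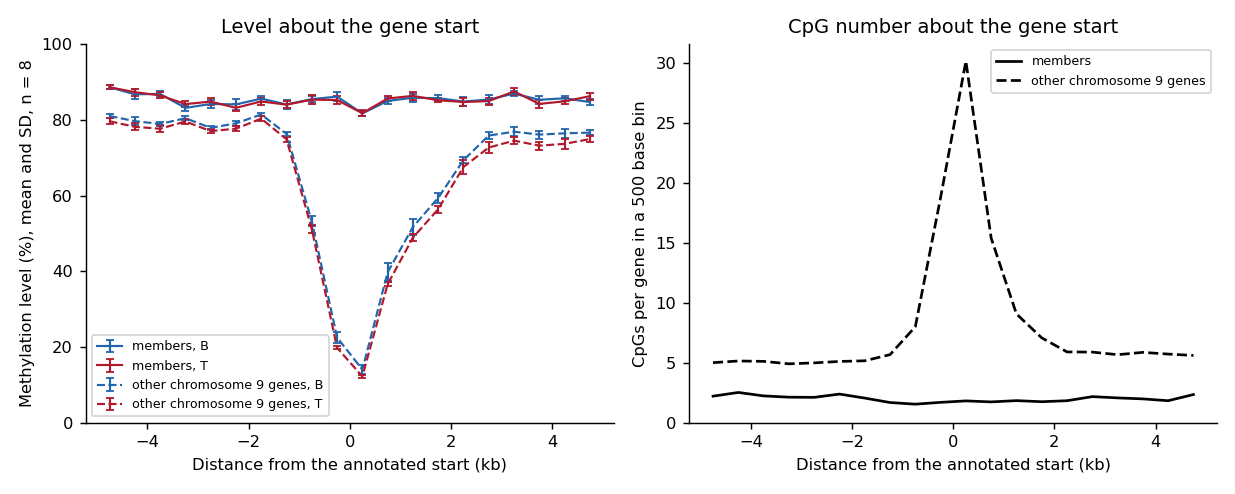
Left, methylation level (%, mean and SD of 8 libraries) in 500 base bins from 5 kb before to 5 kb after the annotated start (x axis, kb) for members (solid) and other chromosome 9 genes (dashed), in B (blue) and T cells (red). Right, CpGs per gene in the same bins. Member levels stay between 81.7% and 88.6% with 1.55 to 2.53 CpGs per gene and bin, while those of other genes fall to 14.1% in B and 12.2% in T cells just after the start, where they hold 30.2 CpGs.

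Along the start, the bin of the first 500 bases was the lowest of the 20 member bins, at 81.7% ± 0.7 in both cell types. The bins on either side of it were at 86.1% ± 1.1 in B and 85.2% ± 0.9 in T cells before, and at 85.0% ± 0.8 and 85.6% ± 0.6 after. The low first bin was present in both cell types, and it was far above the same bin of other genes.

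The tiles gave the clusters between the genes as well. All 410 cluster tiles passed the filter, 160 in cluster 1 and 250 in cluster 2, with medians of 85.7% in B and 85.8% in T cells. Of these tiles, 86.3% were at 80% or more in both cell types, against 80.3% of the other 11710 chromosome 9 tiles, whose medians were higher, at 88.1% and 87.6%. Stretches of 500 kb lay between 84.0% and 88.1% in both cell types, with overlapping libraries in every stretch.

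**Figure D4:**
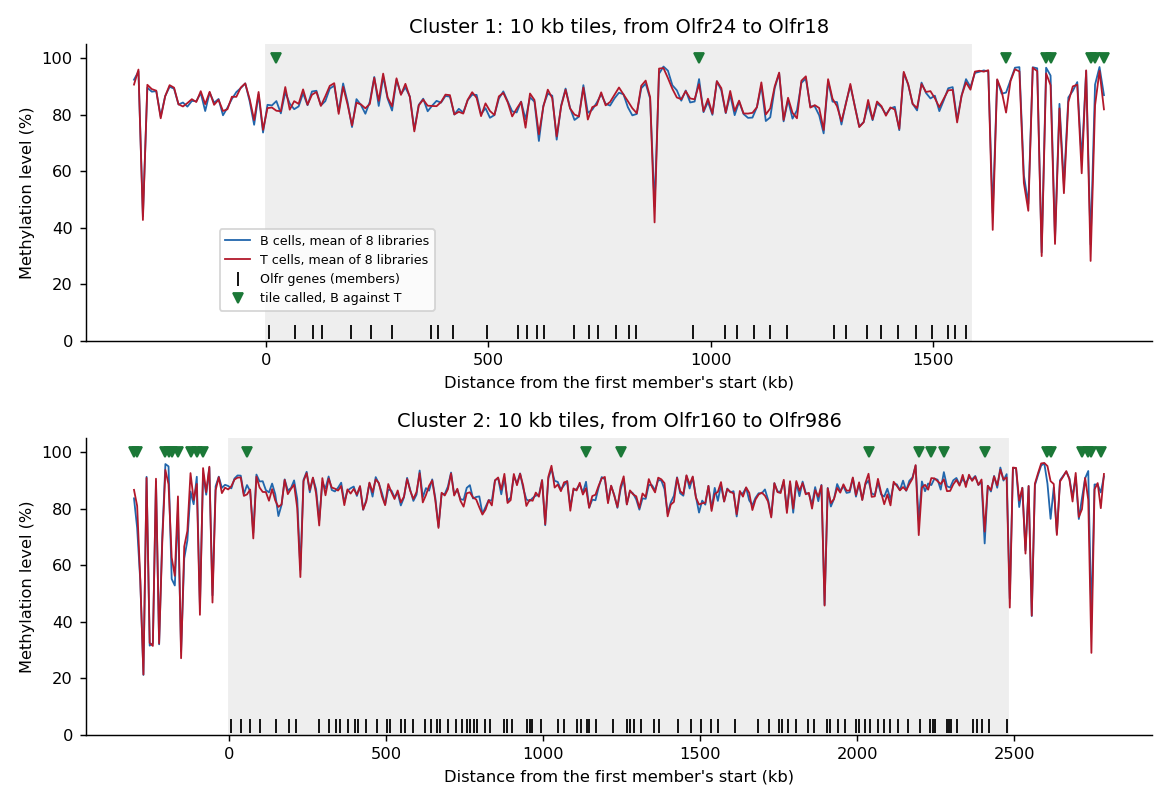
Methylation level (%) of 10 kb tiles (y axis) against distance from the first member's start (x axis, kb) for both clusters (grey) with 300 kb on either side, in B (blue) and T cells (red), each a mean of 8 libraries, with members as black ticks and tiles called between B and T cells as green triangles. Both lines run near 85% through the clusters and fall under 50% in 3 cluster tiles, while low and called tiles are denser in the flanks.

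The lowest tiles inside the clusters mostly held starts of other genes (a tile is given by its first base). The tile from 19620001 overlapped the start of the zinc finger gene Zfp317, inside cluster 1, and was at 47.5% ± 6.0 in B and 41.8% ± 4.0 in T cells. The tile from 39600001 held the start of AW551984 and the 2 kb flank of Olfr148, and was at 46.0% ± 3.9 and 45.7% ± 3.0. The tile from 40190001, the last of cluster 2, held the end of Olfr986 and the start of Zfp202, at 48.2% ± 3.5 and 45.0% ± 4.1. These 3 were the only cluster tiles under 50% in either cell type. The next lowest, from 37930001, held no coding gene but the flank of the pseudogene Olfr879-ps1, and was at 58.4% ± 5.2 and 55.8% ± 3.9. None of these 4 was called between B and T cells, and the fifth lowest, from 40110001 near Olfr984, was.

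Of the other protein-coding genes within the cluster spans, start windows were low for Zfp317 (6.95% ± 2.4 in B and 7.10% ± 2.1 in T cells), AW551984 (15.5% ± 4.8 and 16.9% ± 4.0) and Vwa5a (22.7% ± 6.1 and 17.3% ± 8.1). Tmem225, a testis gene, was at 87.9% ± 3.7 and 85.8% ± 3.6. The nearest genes outside were Muc16, a mucin at 86.1% and 87.7%, and the zinc finger gene Zfp560 at 14.5% and 10.8% beside cluster 1, and the pannexin gene Panx3 at 81.5% and 83.5% and Zfp202 at 18.3% and 15.8% beside cluster 2. None of these 8 start windows or gene regions was called between B and T cells. Receptor start windows thus had medians of 86.3% and 85.8%, while the starts of 3 other genes inside the same spans were at 22.7% or less.

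In the quasi-binomial model, 6 cluster tiles were called higher in B and 4 higher in T cells, or 2.44% of the 410. Over all 254113 tiles, 11% were called higher in B and 4.26% higher in T cells, and of the other chromosome 9 tiles 18.1% were called. The share was also lower in each class of CpG number. Of tiles with 51 to 75 CpGs, 4.60% of 87 cluster tiles and 14.5% of 2974 others were called, and of those with more than 100 CpGs, 6.90% of 29 and 24.98% of 3867. The last class was not matched, since its cluster tiles held up to 218 CpGs and the others up to 547. Scaling by the chromosome 9 level of each library gave 1 cluster tile higher in B and 22 higher in T cells of 410, against 18286 and 21016 of all 254113 tiles, so the split depends on whether the lower chromosome level of T cells is taken as the baseline.

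The called tiles differed by small amounts. The largest difference higher in B was in the tile from 39900001, which overlaps Olfr229 with its flank, at 75.7% ± 3.0 in B and 70.7% ± 2.6 in T cells (adjusted p = 0.0322). When each of the 16 libraries was left out in turn, it was called in 10 of 16 cases. The tile from 37760001, within 2 kb of Olfr875, was at 88.4% ± 1.8 and 85.1% ± 1.1 (adjusted p = 0.0119) and was called in all 16, but not with scaling by chromosome 9. The tile from 19720001 held 158 CpGs and no annotated gene within 2 kb (adjusted p = 0.00225). It ran from 91.8% through 92.5% to 93.8% in B cells and from 89.7% through 90.8% to 91.7% in T cells. It was the only called cluster tile whose groups did not overlap, and the share of such tiles over all tiles is not given here. The tiles from 18770001 (3.42 points), 39980001 (2.58) and 38840001 (2.26, at Olfr924) were the other 3 higher in B, and were called in 6, 15 and 3 of the 16 cases.

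Of the 4 tiles higher in T cells, that from 40110001 at Olfr984 showed the largest difference. It was at 67.7% ± 2.1 in B and 71.9% ± 2.0 in T cells (adjusted p = 0.0154), with libraries from 65.2% to 70.6% in B and from 69.2% to 75.3% in T cells. The tile from 38950001, near no coding gene, was 1.097 points lower in B cells (adjusted p = 0.0152). Both were called in all 16 cases. The tile from 38950001 was not called with the exact permutation test, with limma, with cell type as the only term or with CpGs of at least 5 calls, whereas that from 40110001 was called under these 4 alternatives. Neither was called within 1 assay or 1 sex alone. The tiles from 39940001 (Olfr974 and Olfr975, 2.48 points lower in B) and 39740001 (Olfr150 and Olfr967, 2.39 points lower) were called in 2 and 9 of the cases.

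Cluster CpGs differed from those outside most where CpGs were dense. CpGs of the clusters with more than 20 CpGs within 500 bases on either side were at 91.4% ± 0.4 in B and 91.1% ± 0.3 in T cells, and those outside at 50.4% ± 1.6 and 48.6% ± 0.2. At 1 or 2 CpGs in this window, cluster CpGs were at 82.2% ± 0.3 and 82.1% ± 0.5 and those outside at 85.9% ± 0.2 and 85.2% ± 0.4. Outside the clusters B cell levels were 88.1% at 5 to 6 CpGs and 86.4% at 11 to 20, so the fall was in the densest class, while cluster levels were higher in each denser class. Over the 132 members, level and CpGs per kb had a Spearman's rho of 0.45, and over the other chromosome 9 genes of -0.53. These are descriptions across regions that share libraries, and genes are not replicates.

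Sequence context separated the CpGs of the members further. CpGs with A or T on both sides and no other CpG within 35 bases, a context known for gradual loss of methylation in dividing cells, were at 76.5% ± 0.2 in B and 76.5% ± 0.4 in T cells. Those with C or G on both sides were at 92.0% ± 0.2 and 91.7% ± 0.2. Outside the clusters the order was reversed, at 81.1% and 79.99% for the first and 74.9% and 73.2% for the second. The context with A or T on both sides and no CpG within 35 bases made up 28.0% of member CpGs and 13.9% of those outside. Within every context class the member levels of B and T cells differed by under 0.5 points and the libraries overlapped.

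**Figure D5:**
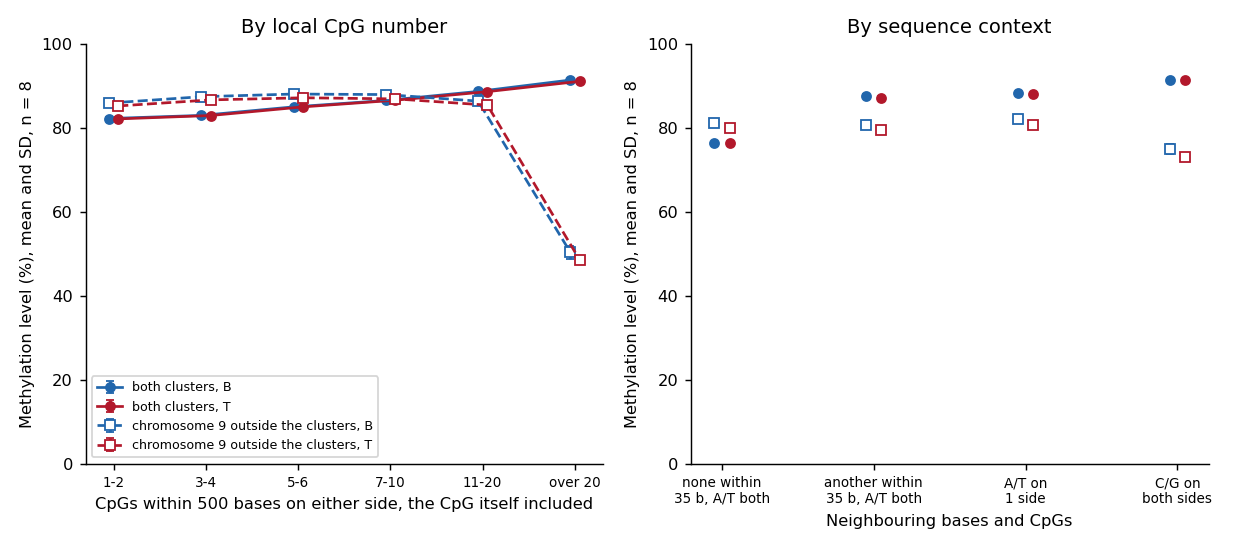
Methylation level (%, mean and SD of 8 libraries) of CpGs in both clusters (filled) and in the rest of chromosome 9 (open), in B (blue) and T cells (red), by the number of CpGs within 500 bases on either side (left) and by neighbouring bases (right). With more than 20 CpGs nearby, cluster CpGs are at 91.4% in B cells and those outside at 50.4%, and the context with A or T on both sides and no CpG nearby is the lowest in the clusters.

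Single CpGs repeated this picture. Of 4906 member CpGs with at least 50 calls over all libraries, 77.3% were at 80% or more, 22.2% between 20% and 80%, and 24 CpGs (0.489%) under 20%. Outside the clusters these shares were 75.7%, 14.2% and 10.1%. Member regions thus had more intermediate and fewer unmethylated CpGs.

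Genes that act with the receptors are given for comparison. Of 16 genes of olfactory signal transduction, 3 were called higher in B and 1 higher in T cells, with a median difference of 0.39 points. Rtp1, a chaperone that brings receptors to the membrane, was at 91.4% ± 1.2 in B and 88.4% ± 0.5 in T cells (adjusted p = 0.00154). Ric8b, which assists the olfactory G protein, was at 87.5% ± 1.0 and 84.8% ± 1.4 (adjusted p = 0.0102). Gnal, which encodes the alpha subunit of that protein, was at 69.4% ± 1.4 and 65.6% ± 1.4 (adjusted p = 0.00411). The gene called higher in T cells, named after its values were seen, was Pde4a, a phosphodiesterase, at 56.0% ± 2.4 and 59.1% ± 1.3 (adjusted p = 0.0329).

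Of 15 genes of receptor choice and silencing, 2 were called higher in B and 0 in T cells, with a median difference of 1.84 points. These were Ebf3, a transcription factor, at 69.0% ± 1.1 and 67.2% ± 0.7 (adjusted p = 0.0148), and the histone demethylase Kdm1a, at 72.3% ± 2.3 and 67.8% ± 3.0 (adjusted p = 0.0211). Lbr, the lamin B receptor, was at 63.3% ± 4.4 and 57.5% ± 3.8 (adjusted p = 0.0652) and was not called. Shares called in these lists, 4 of 16 and 2 of 15, can be read against the 24.5% of all genes called in either direction.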

How the data were processed

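The authors aligned the WGBS reads using Bismark (version 0.20.0, default options, mm10), and only reads with a MAPQ of 10 or more gave calls. Trim Galore 0.6.0 and SAMtools 1.3.1 are named in the submitters' processing notes. The deposited values are raw counts of unmethylated and methylated calls per CpG and library, summed over both strands. Multiply mapping reads do not contribute, so CpGs in close copies can lack calls. Calls were pooled per feature, and features with at least 20 calls and 4 covered CpGs in at least 5 libraries of each cell type were tested by the quasi-binomial F test (12 residual degrees of freedom, 11 with an interaction) and Benjamini-Hochberg adjustment, checked on simulated data. Clusters were runs of members with at most 500 kb between neighbours. Alternatives included an exact permutation test and limma 3.58.1 (R 4.3.3). Python 3.11.15, scipy 1.17.1 and BLAST 2.17.0 were used. Conversion controls were not analysed here. Intervals of the model cover the spread between libraries. Named genes were the 5 highest and 5 lowest members and start windows, called members and tiles with the largest differences, the outermost members, Olfr151, Olfr160, other genes in or beside the clusters, and the 3 smallest p of each list. Members and lists were chosen with earlier results of these data known. A marker gene of the label check is not reported here.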

Additional observations from a re-analysis of the deposited data

Results flagged for a closer look

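Among 104 sets of 8 libraries tested, drawn from the named members, windows and tiles and from the pooled levels, 2 held a library far from the other 7 of its cell type, and chance flags about 1 in 20. In the Olfr160 region, male T cell BS replicate 7 was at 82.9%, below the next T cell library at 87.8%, and without it Olfr160 was called higher in T cells. In the Olfr58 start window, female T cell BS replicate 15 was at 41.2%, below the next at 64.0%, at a median of 21.5 calls per library.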

How the results depend on the processing

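No paired analysis was possible because the replicate numbers of the labels run from 1 to 16 and no 2 groups share one. Counts of called members, 0 in every main comparison, became 1 higher in B cells with cell type as the only term (4342 of all gene regions), with limma (4589), in BS libraries alone (481), in males alone (276), in females alone (1252) and for genes without flanks (4347), and 2 with 5 kb flanks (4666). They became 1 higher in T cells with the exact permutation test (818 of all), in oxBS libraries alone (274) and in females alone (219), and 2 with 5 kb flanks (812) or scaling by chromosome 9 (2442), which also gave 1 member called for sex (387 of all). Start windows gave 1 higher in T cells in females alone (129 of all windows) and with no filter (629). Leaving out 1 library gave 0 to 2 members higher in B, 0 to 1 higher in T, 0 to 1 for sex (Olfr974, without male B cell oxBS replicate 3, with 364 of all gene regions), 0 to 1 for cell type by assay (Olfr958, without male T cell BS replicate 5, with 645 of all) and 0 to 1 start windows higher in B (Olfr919, without male T cell oxBS replicate 6, with 1092 of all windows). The number of cluster tiles higher in B, 6 (27929 of all tiles), was 3 with CpGs of at least 5 calls (23513), 1 at differences of at least 5 points (11896), with scaling (18286), in BS alone (5570) and in oxBS alone (19475), and 0 at 10 points (4315), in males alone (5796) and in females alone (6873). The number higher in T, 4 (10831 of all tiles), was 22 with scaling (21016), 1 with the exact permutation test (10421), cell type alone (10643), oxBS alone (3281) and males alone (2281), and 0 at 5 points (4365), at 10 points (1339), in BS alone (4263) and in females alone (2427). The tiles called in BS alone (higher in B) and in oxBS alone or males alone (higher in T) were not among these 10. Leaving out 1 library gave 3 to 7 tiles higher in B, with 3 without male B cell oxBS replicate 3 (24434 of all tiles) or male T cell oxBS replicate 6 (24588). It gave 2 to 7 higher in T, with 7 without female B cell BS replicate 12 (9844) and 2 without female B cell oxBS replicate 9 (10516), female T cell oxBS replicate 14 (10051) or male B cell BS replicate 1 (9972). Of cluster tiles of 5 kb, 0.860% were higher in B (1.46% at 10 kb) and 0.246% higher in T (0.976%), with 41539 and 18111 of all 504851 such tiles, and of those of 20 kb 0.488% were higher in T, with 5908 of all 127361. The median member level stood 5.30 points above chromosome 9 in B and 6.52 in T cells, from 5.11 to 5.47 and from 6.40 to 6.66 without single libraries, and 5.38 in T cells as a mean of CpG fractions. The causes were not tested, and subsets hold 8 libraries. Depth limits single members, at a median of 214 calls per library.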
